A study of Mus musculus with 15 samples.

Results

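The genes described here are 2 interferon regulatory factors, Irf1 and Irf8, and 5 interferon-induced GTPases, the guanylate-binding proteins Gbp2 and Gbp3 and the immunity-related GTPases Igtp, Irgm1 and Iigp1. They were measured in mouse whole heart by every probe set (a group of oligonucleotide probes for one transcript on the array) whose only annotated symbol was one of the 7, which gave 10 of the 45101 probe sets. Of these, 9 were bright enough to be tested, beside 21296 tested in all. The study followed the heart after aldosterone, the adrenal mineralocorticoid hormone, on 15 arrays of total RNA. The control group (n = 7) and the aldosterone group (n = 7) had 1 array each at 0.5, 1, 2, 3, 4, 5 and 12 h, and a single control array at 0 h came from an animal or animals that had no injection. The labels give no strain, age, sex, dose or route, do not say what the timed controls received, and leave unsaid if 1 heart or several went onto an array, so the p-values given below cover no more than differences from array to array, some of which may be technical.

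Interferon gamma, a cytokine released mainly by natural killer and T cells, acts through its receptor and the JAK kinases and switches on genes whose promoters hold gamma-activated sites. Irf1 is an early target of this cytokine, and the IRF1 protein then binds IRF elements in the promoters of later genes. These later genes include the guanylate-binding proteins and immunity-related GTPases, which gather on the vacuoles of intracellular parasites and bacteria. IRF8 is an IRF of macrophages and dendritic cells. Interferon-induced GTPases are also expressed by endothelium and other cells that are not leukocytes.

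Promoters of these genes are shown with the letters that match the gamma-activated site and the IRF element. RefSeq promoter windows (GRCm38.p6, 300 bases, from 250 before to 50 after the start of transcription) were taken from the table for 6 of the 7 genes. Iigp1 was left out of the search and is named only. Both strands were searched for the gamma-activated site TTCNNNGAA and for the IRF element, here GAAA, any 2 bases and GAAA again. Capitals mark matches to either in a stretch of 120 bases, read 5′ to 3′ on the gene's strand. The stretch runs from base -100 to base 20 around the start, and for Irf8 from -180 to -61. Irf1 is from chr11:53769914-53770033 (plus strand), Irf8 from chr8:120736178-120736297 (plus), Gbp2 from chr3:142620563-142620682 (plus), Gbp3 from chr3:142559944-142560063 (plus), Igtp from chr11:58199456-58199575 (plus) and Irgm1 from chr11:48871401-48871520 (minus).
Irf1: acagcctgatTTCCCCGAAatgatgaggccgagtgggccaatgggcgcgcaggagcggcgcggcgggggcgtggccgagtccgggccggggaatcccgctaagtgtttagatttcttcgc
Irf8: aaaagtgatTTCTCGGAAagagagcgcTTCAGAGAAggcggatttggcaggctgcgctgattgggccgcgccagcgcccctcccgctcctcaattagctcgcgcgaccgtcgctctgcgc
Gbp2: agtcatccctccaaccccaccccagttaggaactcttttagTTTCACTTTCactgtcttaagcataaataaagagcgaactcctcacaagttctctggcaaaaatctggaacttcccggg
Gbp3: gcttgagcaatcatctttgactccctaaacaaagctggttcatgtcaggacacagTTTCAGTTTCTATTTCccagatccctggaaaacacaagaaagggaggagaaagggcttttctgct
Igtp: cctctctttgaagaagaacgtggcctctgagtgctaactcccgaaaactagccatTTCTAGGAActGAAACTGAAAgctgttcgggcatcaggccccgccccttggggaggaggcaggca
Irgm1: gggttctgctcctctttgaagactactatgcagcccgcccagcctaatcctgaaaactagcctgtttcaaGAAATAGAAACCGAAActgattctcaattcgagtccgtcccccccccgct
Of 9 windows for these 6 genes, the first of each gene is shown, and the second windows of Irf1, Irf8 and Gbp3, from other starts, held neither element. The gamma-activated site stood in the first window of both Irf genes, at base -90 in Irf1 and at -171 and -153 in Irf8. It also stood in Igtp, at -45. The IRF element stood in the first window of all 4 GTPase genes that were searched and in no window of the 2 Irf genes. Its matches began at -59 in Gbp2, at -45 and -39 in Gbp3 (overlapping), at -34 in Igtp and at -30 and -24 in Irgm1 (overlapping). Of the 32851 windows in the table, 8.3% held the gamma-activated site and 3.44% the IRF element. A match describes the letters in the window and shows no binding. In the RefSeq gene order, Gbp3 and Gbp2 were separated by Gbp2b alone, and Igtp lay between Gm12250 and Irgm2, all of them genes of the same families.

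Levels are given as log2 of the deposited signal plus an offset of 167.8, after quantile normalization, so that a difference of 1 is a doubling, and folds of dim probe sets are understated. Array medians of the deposited signal ran from 413.8 to 741.4. Summed signals of 6 lung epithelium markers were 180060 on the control and 411153 on the aldosterone 1 h array and at most 5620 elsewhere, so results that use 1 h are also given without it where that ends a call. All 6 cardiomyocyte markers passed the filter, with sums between 1128129 and 1888658. Sums of 4 atrial markers (46444 to 492949) and 2 fat markers (625 to 13051) also varied between arrays, and their part in the results was not tested. In whole hearts, fewer cells of a type and less RNA per cell cannot be told apart. The number of arrays limits the precision.

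Irf1 changed with time, with its highest level at 2 h in both groups. In the control group its deposited signals were 8036 at 0.5 h, 6307 at 1 h, 14425 at 2 h, 10320 at 3 h, 6969 at 4 h, 7601 at 5 h and 6878 at 12 h. With aldosterone they were 7476, 6544, 14132, 6409, 5852, 6343 and 6869 at the same times, and the uninjected heart had 7026. Both 2 h arrays stood above the other 13, and the control 3 h array was the third highest. As log2 levels, the mean of the 2 arrays was 13.05 at 0.5 h, 12.67 at 1 h, 13.78 at 2 h, 13.04 at 3 h, 12.62 at 4 h, 12.75 at 5 h and 12.76 at 12 h. In the order of these means, from 4 h through 1, 5, 12, 3 and 0.5 h, the arrays of each time overlapped those of the next, and only the 2 h arrays lay apart from their neighbour. The 2 h mean was 2.23-fold above the 4 h mean.

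The effect of time on Irf1 was called by limma with treatment as a covariate (F = 11.4, adjusted p = 0.0281). Over all tested probe sets 1.93% were called for time (410), and of the 9 described here 2 were. Leaving out any 1 of the arrays at 0.5, 2, 4 or 5 h, in either group, ended the call. Without the whole 2 h pair the adjusted p was 0.328, and over the contrasts of times that share a scan day it was 0.109. The difference of 2 to 3 h from 0.5 to 1 h was 0.55 ± 0.12 (SE, adjusted p = 0.0968), and that of 4 to 5 h from 2 to 3 h was -0.72 ± 0.12 (adjusted p = 0.0555), neither past the threshold of 0.05. Without the 3 h pair, which leaves 2 h alone in its window, they were 0.92 ± 0.13 (adjusted p = 0.0117) and -1.09 ± 0.13 (adjusted p = 0.00431). Without the 2 h pair, the time of the highest levels, they were 0.18 ± 0.15 (adjusted p = 0.782) and -0.35 ± 0.15 (adjusted p = 0.312). Between arrays 3 h apart in the same group and scan day the mean difference was -0.36 ± 0.10 (2 of 6 positive, adjusted p = 0.184). The SE of this and of later steps comes from the limma fit to all 14 timed arrays. It does not measure the spread of the 6 differences, whose SD was 0.55 here.

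**Figure D1:**
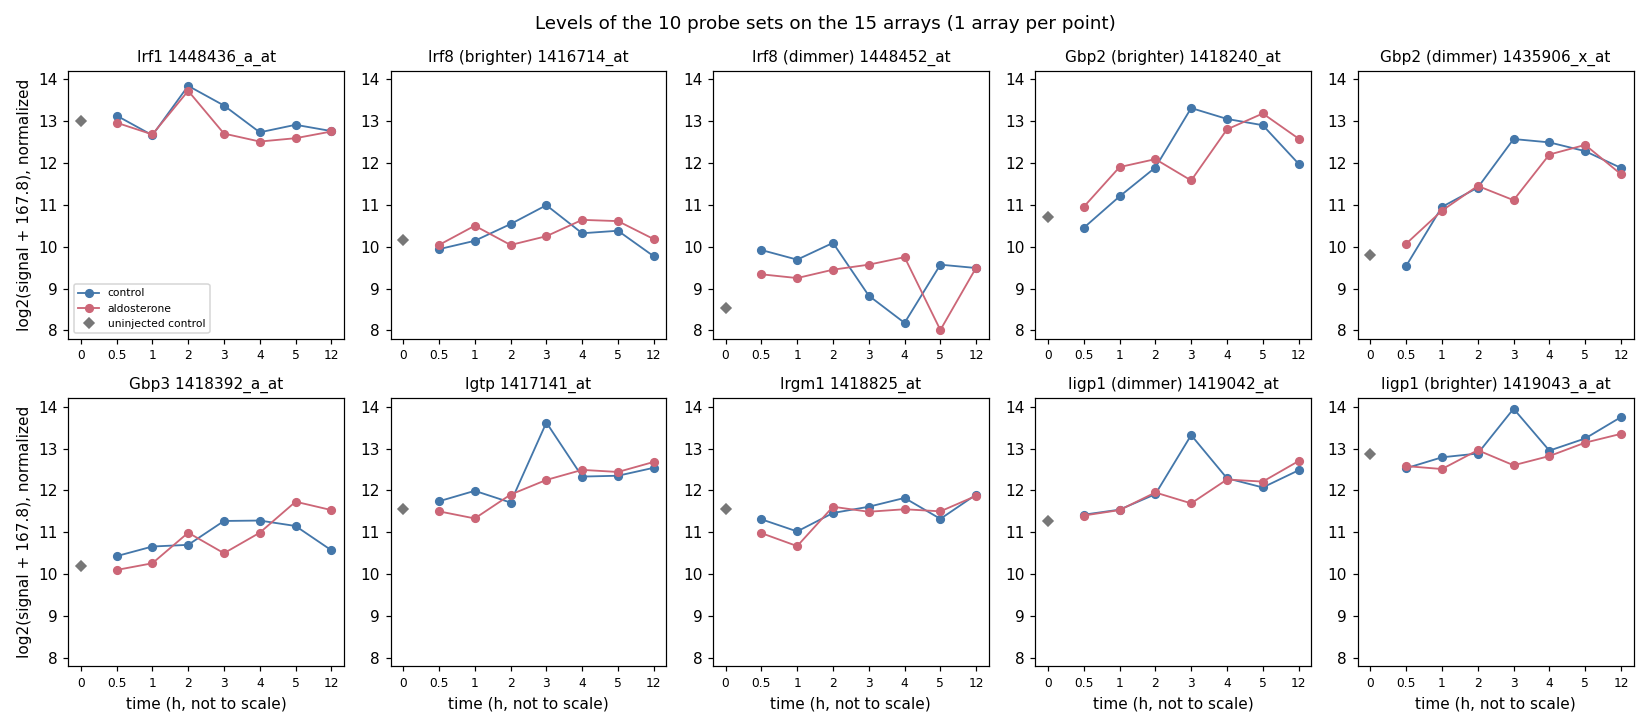
Level of each probe set (log2 of signal plus offset, quantile normalized) by time in h, with times evenly spaced and not to scale, 1 array per point, for control, aldosterone and the uninjected control. Irf1 is highest at 2 h in both groups. Both Gbp2 probe sets are higher at 4 and 5 h than at 0.5, 1 and 2 h in both groups. The control 3 h array is the highest of 15 for Igtp, Gbp2 and Iigp1.

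Irf8 was dim, and no test called it. The brighter of its 2 probe sets, the tested one, had control levels of 9.94, 10.14, 10.54, 10.99, 10.32, 10.38 and 9.77 from 0.5 to 12 h. With aldosterone they were 10.04, 10.50, 10.04, 10.25, 10.64, 10.61 and 10.18, and the uninjected array had 10.17. Aldosterone was the higher group at 5 of 7 times with no order between them, and the highest time mean was 1.56-fold above the lowest (time effect, adjusted p = 0.566). The dimmer probe set lay below the filter, with signals between 67.5 and 950.8, and was not tested. The pair correlated at -0.28 over the 15 arrays, so they did not give 1 profile for the gene.

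Gbp2, an interferon-inducible GTPase that coats pathogen vacuoles, was higher at 4 and 5 h than at 0.5 h in both groups. Its control signals were highest at 3 h, and its aldosterone signals dipped between 2 and 3 h. For the brighter of its 2 probe sets the control signals were 1367, 2203, 3684, 9905, 8861, 7519 and 3840 at 0.5, 1, 2, 3, 4, 5 and 12 h. With aldosterone they were 1870, 3660, 4173, 2968, 7285, 9896 and 6051, and the uninjected heart had 1679. The 4 arrays at 4 and 5 h stood above every array at 0.5, 1 and 2 h in both groups, the 0.5 h arrays lay on either side of the uninjected one, and the 2 arrays at 3 h lay far apart. The dimmer probe set had control signals of 716, 1814, 2596, 5894, 5779, 4840 and 3576 and aldosterone signals of 973, 1656, 2591, 2113, 4637, 5634 and 3222, with 961 in the uninjected heart. The suffix of its name, x_at, marks probes that may also match related sequences, and Gbp genes are alike in sequence, so its signal may include other members of the family. The profiles of both probe sets correlated at 0.97 over 15 arrays.

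The mean level of Gbp2 at 5 h was 5.06-fold (brighter probe set) and 5.84-fold (dimmer) that at 0.5 h. Set in order of their means, the times ran 0.5, 1, 2, 12, 3, 4 and 5 h for the brighter probe set, and the arrays of neighbouring times overlapped from 1 h on. For the dimmer one the arrays of 0.5, 1, 2 and 12 h formed separate steps, and those of 12, 3, 4 and 5 h overlapped. A line fitted to the 12 arrays between 0.5 and 5 h had a slope (below, the trend) of 0.49 ± 0.08 log2 per h for the brighter probe set (SE, adjusted p = 0.0239), and of 0.52 ± 0.08 for the dimmer one (adjusted p = 0.0192). In that test 0.155% of all probe sets were called as rising (33), and 2 of the 9 described here, both of Gbp2. Over all times the time effect was called for the dimmer probe set (adjusted p = 0.0192) and not for the brighter one (adjusted p = 0.0734), and it was lost for the dimmer one without the control 0.5 h, the control 4 h or the aldosterone 5 h array. The log2 ratio of the 3′ to the 5′ Gapdh control probes, a sign of RNA quality, was -0.17 (control) and -0.23 (aldosterone) at 0.5 h, 3.21 and 2.17 at 4 h and 0.47 and 1.28 at 5 h, within -0.23 to 3.92 over all arrays. With this ratio as a covariate the trends were 0.46 ± 0.07 (adjusted p = 0.00777) and 0.49 ± 0.07 (adjusted p = 0.0056). The trend counts both arrays of a time as separate. With time as a random block the adjusted p-values were 0.102 and 0.0607. With scan day as a block the trends were 0.48 ± 0.09 and 0.50 ± 0.09 (adjusted p = 0.065 and 0.0407). Leaving out either group's 0.5 or 4 h array, or the aldosterone 5 h array, also ended these calls, and leaving out the control 1 h array, the 1 h pair (0.52 ± 0.09, adjusted p = 0.0552) or the 2 h pair ended that of the brighter probe set, with adjusted p up to 0.251 and 0.155 over all alternatives.

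Times 3 h apart shared a scan day (3 with 0.5 h, 4 with 1 h and 5 with 2 h), which gives a comparison within a group and a day. The mean of these steps was 1.39 ± 0.25 for the brighter probe set (SE, adjusted p = 0.0319) and 1.46 ± 0.20 for the dimmer one (adjusted p = 0.00631), or 2.62-fold and 2.76-fold. All 6 steps of each were positive, from 0.63 to 2.86 (SD 0.83) and from 0.86 to 3.03 (SD 0.81), the largest in the control group between 0.5 and 3 h. Over all probe sets 0.329% were called as rising in this test (70). No single array ended the step call of the dimmer probe set. That of the brighter one was lost without any 1 timed array up to 5 h except the aldosterone 1 h and both 3 h arrays (adjusted p up to 0.262 over all alternatives). Without the 1 h pair the steps were 1.40 ± 0.30 and 1.48 ± 0.25 with adjusted p = 0.185 and 0.0822. Without the control 3 h array they were 1.05 ± 0.14 and 1.21 ± 0.14 with adjusted p = 0.015 and 0.00704.

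By successive windows, 1 of the 2 probe sets was called in 1 window. From 0.5 and 1 h to 2 and 3 h, the dimmer probe set rose by 1.28 ± 0.24 (adjusted p = 0.0483), in a test that called 0.305% of all probe sets as rising (65). This call was lost in 20 of 28 alternatives, among them the deposited scaling and leaving out any single timed array but the aldosterone 0.5 and 3 h ones (adjusted p up to 0.369), and without the control 3 h array the difference was 0.91 ± 0.17. For the brighter one this difference was 1.09 ± 0.31 (adjusted p = 0.263). From 2 and 3 h to 4 and 5 h the differences were 0.77 ± 0.31 and 0.71 ± 0.24 (adjusted p = 0.539 and 0.453). At 12 h they were -0.70 ± 0.38 and -0.54 ± 0.30 against 4 and 5 h (adjusted p = 0.620 and 0.632).

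Gbp3, a close relative of Gbp2 on the same chromosome, had a smaller difference over the same hours that was not called. Its control levels were 10.43, 10.66, 10.70, 11.27, 11.28, 11.15 and 10.57 from 0.5 to 12 h. With aldosterone they were 10.10, 10.26, 10.99, 10.50, 10.99, 11.73 and 11.53, with 10.20 in the uninjected heart. The arrays at 4 and 5 h stood above those at 0.5 and 1 h in both groups, and at 12 h the groups lay on opposite sides of their 4 h levels. The trend was 0.24 ± 0.05 per h (adjusted p = 0.0721), and 0.23 ± 0.05 (adjusted p = 0.0431) with the Gapdh ratio as a covariate. The steps within a day were the most even of any probe set here, between 0.41 and 0.84 (6 of 6 positive, SD 0.17). Their mean was 0.63 ± 0.20 (SE of the limma fit, adjusted p = 0.311).

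Igtp, an immunity-related GTPase with a role in defence against Toxoplasma, stood out on the control 3 h array. Control signals were 3209, 3925, 3220, 12051, 5151, 5105 and 5783 at 0.5, 1, 2, 3, 4, 5 and 12 h. With aldosterone they were 2791, 2384, 3639, 4661, 5775, 5661 and 6520, and the uninjected heart had 2778. All 8 arrays from 3 h on lay above all 7 at 0 to 2 h. No share over all probe sets is given for this split, which was read from the values. The time effect had adjusted p = 0.123, and the step within a day was 0.88 ± 0.18 (6 of 6 positive, adjusted p = 0.0676). The trend was 0.22 ± 0.08 per h (adjusted p = 0.383).

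Irgm1, a regulator of the other immunity-related GTPases, moved over a narrower range. Its control levels were 11.31, 11.02, 11.46, 11.61, 11.82, 11.32 and 11.90 from 0.5 to 12 h. Its aldosterone levels were 10.98, 10.67, 11.61, 11.49, 11.55, 11.50 and 11.87, and the uninjected array had 11.56. The lowest levels were at 1 h and the highest at 12 h in both groups, 2.06-fold apart in their means, and the groups overlapped. No test called it (time effect, adjusted p = 0.082, and step 0.37 ± 0.11, 4 of 6 positive, adjusted p = 0.251). The 1 h arrays were those that carried the lung markers, and without the 1 h pair the step was 0.14.

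Iigp1, an effector GTPase that disrupts the parasite vacuole, had a profile like that of Igtp. Control signals of the dimmer of its 2 probe sets were 2553, 2804, 3717, 9963, 4960, 4166 and 5578 from 0.5 to 12 h. With aldosterone they were 2600, 2786, 3776, 3213, 4844, 4807 and 6596, and the uninjected heart had 2344. At 0.5, 1, 2 and 4 h the groups were close, and at 3 h the control array was the highest of all 15. The step within a day was 0.68 ± 0.20 (6 of 6 positive, adjusted p = 0.249), and 0.41 ± 0.16 for the brighter one (6 of 6 positive, adjusted p = 0.439). Means at 12 h were 2.26-fold and 1.99-fold those at 0.5 h. Both probe sets correlated at 0.87 over the arrays and neither was called for time (adjusted p = 0.218 and 0.220).

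**Figure D2:**
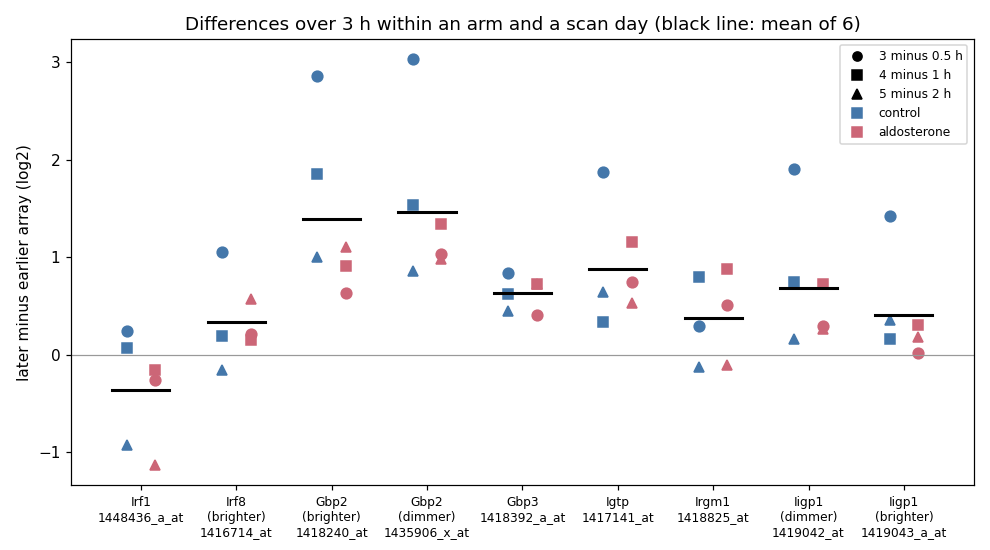
Differences (log2) between arrays 3 h apart in the same group and scan day, for the 9 tested probe sets. Circles are 3 minus 0.5 h, squares 4 minus 1 h and triangles 5 minus 2 h, blue is control, red is aldosterone, and the black line is the mean of 6. All 6 points lie above 0 for Gbp2, Gbp3, Igtp and Iigp1, and 2 of 6 do for Irf1.

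Across the 9 tested probe sets, 7 had all 4 arrays at 4 and 5 h above all 4 at 0.5 and 1 h, namely those of the 5 GTPases, beside 4.06% of all tested probe sets (864). The margin was narrow for Irgm1, whose lowest level at 4 and 5 h was 11.32 and highest at 0.5 and 1 h 11.31. It was also narrow for the brighter Iigp1 probe set (12.82 and 12.79). Their uninjected levels were 11.56 and 12.87. The 9 include only those that passed a filter on the mean of all arrays. The median step within a day was 0.63, beside 0.02 over all probe sets, and the median trend was 0.19 per h, beside 0.01. Between 2 to 3 h and 4 to 5 h none of the 9 was called (3 with an unadjusted p under 0.05), beside 0.0751% of all probe sets (16). From 4 to 5 h to 12 h none was called by limma (0 with an unadjusted p under 0.05), beside 0.0141% (3). The number called depended on single arrays. Without the 3 h aldosterone array 6 of the 9 were called for time (of 179 called in all), 5 for the step (of 122) and 6 for 2 to 3 h against 0.5 to 1 h (of 93). With all arrays these were 2 (of 410), 2 (of 109) and 1 (of 86). The totals in brackets count rising and falling probe sets together. Without the 0.5 h pair none was called in any of these tests.

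Aldosterone was compared with control over all 7 times, with time as a block, to ask whether these genes respond to the hormone. None was called, and neither was any probe set on the array (0%, by limma; 927 with an unadjusted p under 0.05, among them 1 of the 9). Irf1 had a mean difference, aldosterone minus control, of -0.21 ± 0.09 (SE, 95% interval -0.41 to -0.02, SD of the differences 0.23, lower in 6 of 7 times, adjusted p = 0.973). Irf8 had 0.03 (interval -0.33 to 0.38), Gbp2 0.04 (-0.47 to 0.55) and -0.18 (-0.58 to 0.22), and Gbp3 0.01 (-0.40 to 0.42). Igtp had -0.24 (-0.61 to 0.13), Irgm1 -0.11 (-0.33 to 0.11), and Iigp1 -0.18 (-0.59 to 0.22) and -0.30 (-0.62 to 0.01). All these intervals exclude a 2-fold mean difference in either direction, as did those of 97.8% of all tested probe sets, but not such a difference at a single time.

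By windows, the calls were again 0% at 0.5 to 2 h (2221 with an unadjusted p under 0.05, none of the 9), 0% at 3 to 5 h (686, 2 of the 9), 0% for the difference of these windows (1443, 1 of the 9) and 0% for the difference of the trend between the groups (425, none of the 9). At 3 to 5 h Irf1 differed by -0.40 ± 0.12 (adjusted p = 1), and by -0.27 ± 0.15 without the 3 h pair. All 9 estimates of this window were below 0, with a median of -0.40 beside 0 over all probe sets. Without the 3 h pair those of Gbp2 went from -0.56 and -0.53 to 0.02 and -0.07, and those of Iigp1 from -0.51 and -0.52 to 0.06 and -0.11. The Gbp2 trend differed between the groups by -0.17 ± 0.16 and -0.11 ± 0.17 per h (adjusted p = 1 for both).

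**Figure D3:**
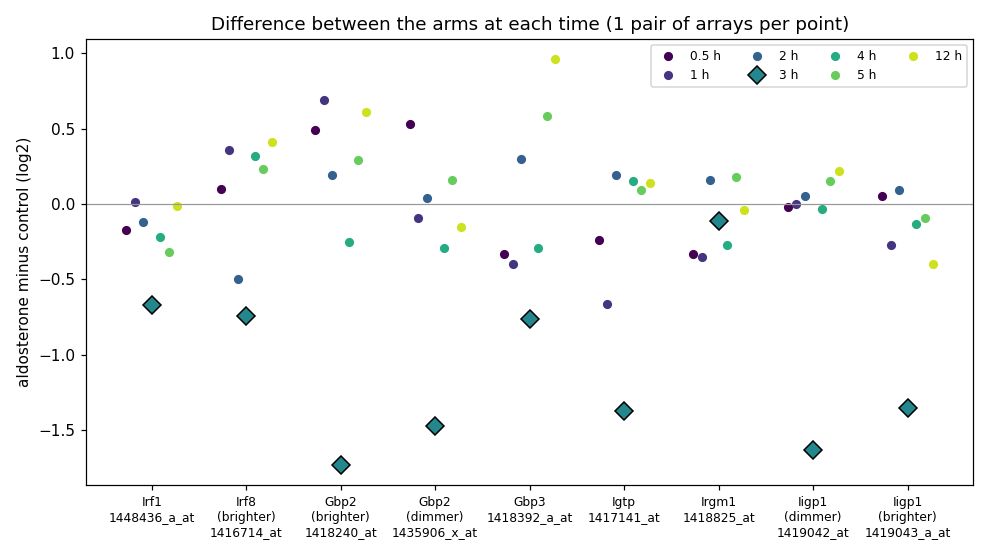
Aldosterone minus control (log2) at each of the 7 times for the 9 tested probe sets, 1 pair of arrays per point, with the 3 h pair as a diamond. The 3 h pair is the lowest point for every probe set but Irgm1, at -1.73 and -1.47 for Gbp2 and -1.63 and -1.35 for Iigp1.

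The 3 h pair gave the lowest value, aldosterone minus control, for 8 of the 9 probe sets, all but Irgm1. At 3 h all 9 probe sets were lower with aldosterone, 5 of them by over 2-fold, beside 1.27% of all tested probe sets (271). At no other time did the normalized levels of any of the 9 differ by over 2-fold in either direction. The nearest was Gbp3 at 12 h, 0.96 higher with aldosterone, with deposited signals of 2756.5 against 1321.5 in control. The differences at 3 h were -1.73 and -1.47 for Gbp2, -1.63 and -1.35 for Iigp1, -1.37 for Igtp, -0.76 for Gbp3, -0.74 for Irf8, -0.67 for Irf1 and -0.11 for Irgm1. The control 3 h array was the highest of 15 for 6 of the 9, beside 4.77% of all tested probe sets. These are values of 1 pair, with no replicate and no test.

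Genes outside the 7 moved with them on that array. Among other interferon-inducible GTPases it was the highest of 15 for 6 of 7 tested probe sets (5 over 2-fold above the aldosterone array). Of the tested probe sets of the interferon gamma signalling list it was so for 1 of 12 and of the other IRFs for 2 of 12, with none over 2-fold. In the signalling list, probe sets below the filter differed at 3 h, aldosterone minus control, by -1.6 (Stat2), -1.06 (Socs1), -0.78 and 0.29 (Ptpn2) and 0.84 (Ifng). The probe set of Ifng itself was below the filter, at 30 on the control 3 h array and 12 to 542.9 on the others.

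Leukocyte markers on the 3 h arrays are given beside these values. The summed signal of 9 macrophage markers (8 of 9 passed the filter) was 41327 in control and 51522 with aldosterone, within 40379 to 86344 over all arrays. That of 8 natural killer and T cell markers, 7 of them below the filter, was 2994 and 3402, within 1854 to 3915. That of 4 dendritic cell markers was 3445 and 4554, and that of 3 B cell markers, 2 of them below the filter, was 1499 and 1443. For 5 neutrophil markers (4 passed the filter) it was 5783 and 5848. Their sums ran from 3552 to 43218 over all arrays, with 15504 (control) and 43218 (aldosterone) at 1 h. For 6 endothelium markers the 3 h sums were 34294 and 40173, within 33157 to 46535. Over time, the macrophage sum in control was 40379 at 0.5 h, 57119 at 1 h, 47911 at 4 h and 41095 at 5 h. With aldosterone it was 49896, 86344, 60430 and 51362 at these times. In both groups the 4 and 5 h sums thus lay above that of 0.5 h and below that of 1 h, whose arrays carried the lung markers. Sums weigh the brightest markers most. The mean log2 level of the macrophage markers in control was 11.74, 11.74 and 11.68 at 0.5, 4 and 5 h. With aldosterone it was 11.93, 12.03 and 11.8. Of the 8 macrophage markers that passed the filter, 4 had a positive step within a day (median -0.01). Of the 4 such neutrophil markers 1 had a positive step (median -0.49), and 1 was called for the step, beside 0.561% of all genes. The part of these cells in the results was not tested.

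**Figure D4:**
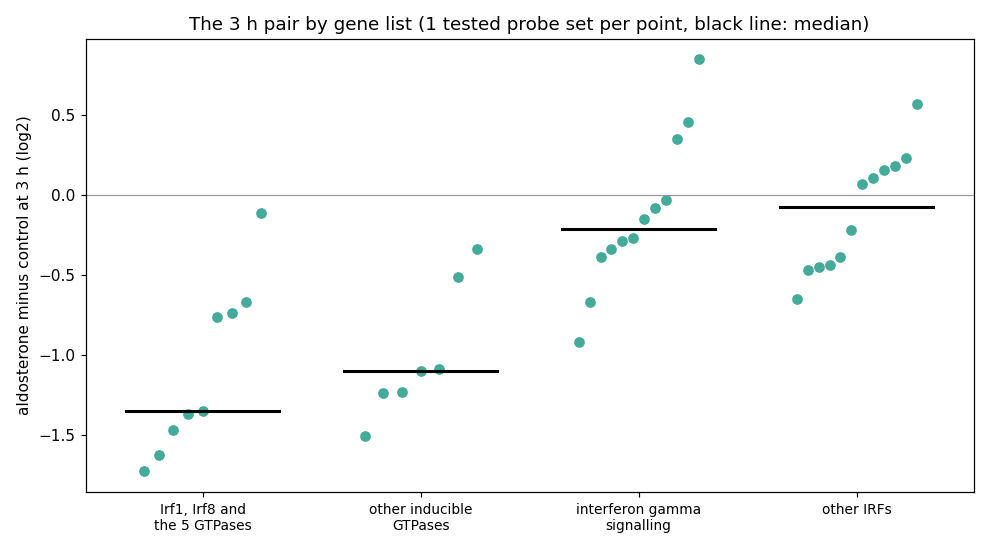
Aldosterone minus control (log2) at 3 h for each tested probe set, by gene list, with the median as a black line. Medians are -1.35 for the 7 genes described here, -1.10 for other inducible GTPases, -0.21 for interferon gamma signalling and -0.07 for other IRFs.

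The rest of the pathway was followed through 3 gene lists, on 1 probe set per gene. Over all 11227 genes 0.561% were called for the step, 0.160% for the trend and 1.66% for time. Of 18 other inducible GTPases 5 were tested, and all 5 had a positive step (median 0.69, beside 0.02 over all genes) with none called. Gbp7 had a trend of 0.27 ± 0.06 per h (adjusted p = 0.112), Gbp6 0.21 ± 0.06, Ifi47 0.30 ± 0.09 and Irgm2 0.19 ± 0.08.

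No upstream gene was called for the step. Of the genes of interferon gamma and its signalling 7 were tested, with a positive step in 4 and a median of 0.07. Irf9, a factor of interferon signalling, had a trend of 0.16 ± 0.04 per h (adjusted p = 0.206), the phosphatase gene Ptpn2 0.14 ± 0.08, and Jak1 and the receptor chain Ifngr1 -0.04 each. Of 8 other IRF genes and IRF2 partners 6 were tested, with a positive step in 3 and a median of 0.01. Irf7, the regulator of type I interferon, had 0.22 ± 0.04 per h (adjusted p = 0.0515), the corepressor Irf2bp2 -0.16 ± 0.06, Irf2 0.05 ± 0.05 and Irf2bp1 0.03 ± 0.05. Irf2bp2 alone was called for time (adjusted p = 0.0347). No gene of the 3 lists was called for aldosterone over the 7 times.

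Profiles of the 7 genes were set against each other over the 15 arrays, as a description, since values of an array share its RNA, scaling and scan day. Igtp and Iigp1 correlated at 0.91 and Gbp2 and Gbp3 at 0.84. Irf1 correlated at -0.13 to 0.10 with the other 6. Of 11220 other genes, the 5 most like the mean standardised profile of the 7 were the interferon-induced Rtp4 and Parp14 (0.89 each), Ifi47 and Ifit1 (0.88 each), and Timeless, a DNA replication gene (0.88), and 0.232% of genes exceeded 0.8. Of these 5 Timeless was called for the step (1.14 ± 0.17, adjusted p = 0.00824). The arrays of the step are among the 15 by which the 5 were picked, and the mean profile itself rose within scan days. A positive step was thus favoured by the choice, and the call is no independent result. All 5 were lower with aldosterone at 3 h, with differences of -0.86 to -1.55, and the 3 h arrays are among the 15 behind these correlations.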

How the data were processed

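Total RNA of mouse whole hearts was measured on 15 Affymetrix arrays. The authors deposited 1 linear intensity (signal) for each probe set, and the submitters' processing notes name GCOS 1.2. Symbols came from the platform annotation (1 symbol for 34958 probe sets, several for 932, none for 9211).

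Signals plus 167.8 (the 25th percentile) were put on a log2 scale and quantile normalized, since array medians differed by 1.79-fold. The 21296 probe sets whose mean level reached that of the median signal, 526.7, were tested. Tests used limma 3.58.1 (R 4.3.3, data.table version 1.17.8) with a variance trend, and a call is an adjusted p (Benjamini-Hochberg, over all of them) under 0.05. matplotlib 3.10.9 drew the figures. The fitting code was tested on simulated data with known changes. Day 1 held the 0.5 and 3 h arrays, day 2 the 1, 4 and 12 h arrays, and day 3 the 2 and 5 h and uninjected arrays, so groups share days. A processing station differed between groups only at 5 h. That effect was not tested.

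Named genes were all 7, up to 4 per list by the size of their trend statistic, any list gene called for the trend, and the 5 of most similar profile. A further list of genes is not reported here. Members and lists were chosen with earlier results of these data known. Alternatives were the scaling, offsets of 16 and 50, no filter or a mean of 1000, no variance trend, array weights, the Gapdh 3′ to 5′ ratio, scan day, and leaving out times or arrays.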

Additional observations from a re-analysis of the deposited data

Results flagged for a closer look

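In each group of 7 arrays, and for the 7 differences between groups, the highest and lowest values were set against Dixon's 95% critical value, in 30 sets of values. Chance flags about 1 in 20 such sets. Irf1 stood apart at 2 h with aldosterone (13.72, the next array at 12.96). The dimmer Irf8 probe set stood apart at 5 h with aldosterone (8.01, next 9.25), and it was below the filter. The other 4 were differences, aldosterone minus control, at 3 h. They were -1.73 for the brighter Gbp2 probe set (next -0.25) and -1.47 for the dimmer one (next -0.29). For Iigp1 they were -1.63 for the dimmer probe set (next -0.03) and -1.35 for the brighter one (next -0.40).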

How the results depend on the processing

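Calls among the 9 probe sets depended on single arrays. The number called for time (2) was 0 to 6 when a time or an array was left out, 0 with no variance trend and 1 within scan days. For the step (2) it was 0 to 5 when leaving out arrays and 1 with no variance trend, and for the trend (2) 0 to 2, 1 with no variance trend, 1 with scan day as a block and 0 with time as a random block, and 3 with the Gapdh ratio. For 2 to 3 h against 0.5 to 1 h (1) it was 0 to 6, and 0 under the deposited scaling, no filter, no variance trend and array weights. For 4 to 5 h against 2 to 3 h (0) it was 0 to 1, and 1 (Irf1) with a mean of at least 1000, array weights or the Gapdh ratio. Step calls when leaving out arrays were 0 to 3 for other GTPases and 0 to 1 for other IRFs, with 1 GTPase called with the Gapdh ratio, and 1 IRF gene with array weights or that ratio. Step and trend of Gbp2 kept their direction throughout (step 1.05 to 1.74 and 1.18 to 1.74, trend 0.39 to 0.58 and 0.38 to 0.64 when leaving out). Aldosterone effects near 0 changed sign. Under the deposited scaling Irf8 had -0.02 and Gbp3 -0.01, with array weights the brighter Gbp2 probe set -0.04 and Gbp3 -0.02, and with the Gapdh ratio Gbp2 -0.03. Leaving out arrays gave -0.04 to 0.16 for Irf8, -0.07 to 0.34 and -0.30 to 0.03 for Gbp2, -0.15 to 0.14 for Gbp3 and -0.25 to 0.06 for the dimmer Iigp1 probe set. At 3 to 5 h it gave -0.99 to 0.02 for the brighter Gbp2 probe set and -0.83 to 0.06 for the dimmer Iigp1 probe set. Trends ran from -0.02 to 0.24 for Ptpn2, -0.02 to 0.11 for Irf2 and 0 to 0.06 for Irf2bp1. Except where arrays were left out, the cause was not tested.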
